A study of Mus musculus with 81 samples.

Results

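The integrated stress response is the program through which a cell slows protein synthesis and rewrites its transcription when amino acids run short, unfolded proteins collect in the endoplasmic reticulum (ER), heme is lacking or double-stranded RNA is sensed. Kinases that sense these conditions phosphorylate the initiation factor eIF2, translation falls, and the transcription factor ATF4 is translated all the better. ATF4 then turns on genes for amino acid supply, redox control and, when stress lasts, cell death. In macrophages the same program meets the interferon response, since one of the kinases, PKR (Eif2ak2), is itself interferon-induced. Described here were 10 genes of this pathway chosen by symbol, of 54079 genes listed in every library. They were the factors Atf4 and Ddit3 (CHOP, the factor that ATF4 induces and that promotes death under lasting stress), the pseudokinase Trib3 that feeds back on both, the glutathione-degrading enzyme Chac1 and the mTORC1 inhibitor Sesn2. The others were the enzymes Asns (asparagine synthesis), Phgdh and Psat1 (the first steps of serine synthesis), the cystine importer Slc7a11, and the ER chaperone Hspa5 (BiP), which stands for the unfolded protein response of the ER.

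The study asked what loss of histone H3.3, the replication-independent H3 variant, does to developing macrophages. RNA-seq was performed on 81 libraries, of which 79 had a group. WT mice carried H3f3a fl/fl and H3f3b fl/fl without cre, and H3.3 cKO (cKO) mice carried the same alleles with LysM cre/cre, all on a C57BL/6 background. LysM cre lies in the Lyz2 gene and deletes in the myeloid lineage, both copies of Lyz2 carried it in the cKO, and loss of H3.3 and of Lyz2 therefore cannot be told apart. Bone marrow cells of mice 8 to 10 weeks old and of both sexes were grown in L929-conditioned medium, a source of M-CSF, into bone marrow-derived macrophages (BMDMs). The time course held both genotypes at day 3, day 5 and day 7 (3 libraries a group). Day 8 BMDMs were untreated or given interferon γ (IFNγ) for 12 h (3 WT and 2 cKO libraries each). A further experiment grew WT and cKO cells with no antibody, with an IgG1 isotype control antibody or with an antibody that blocks the type I interferon receptor chain IFNAR1 (3 libraries a group). By the methods, antibodies were given from the start of culture and renewed every 12 h, and cells were lysed earlier than day 7. Resident macrophages of the peritoneal cavity were taken from WT and cKO mice (3 libraries each). The last experiment held 3 sets of WT and cKO BMDMs and 3 double knockouts, in which the cKO also lacked Sting, Mavs or Irf7 (3 libraries a group). Labels call the libraries biological replicates and do not say which mice they came from. Each library holds many cells, so fewer cells of a type and less RNA per cell cannot be told apart.

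Each library of the time course held 14419697 to 20220329 counts on genes, and each of day 8 held 3614967 to 9879339. The range was 7625225 to 23381318 for peritoneal macrophages, 5295144 to 34380735 for the cells grown with or without antibody, and 21504555 to 45581528 for the sets and double knockouts. Levels are given as CPM (counts scaled to a common library total, with TMM factors) within each experiment, and SE is the standard error of a log2 difference. Adjusted p-values are those of edgeR's quasi-likelihood test with Benjamini-Hochberg adjustment over all genes tested, with calls at adjusted p below 0.05. The targeted H3f3a stood at 6.95% to 27.3% of its WT level in every cKO group. H3f3b stood at 75.0% to 89.5% of WT except in the antibody experiment, where it stood at 11.5% to 13.3%. Macrophage markers summed to at least 2482 CPM in every group named below. Several libraries stood apart from the others of their group. The library cKO day 8 IFNγ replicate 1 had the fewest counts, and 78.1% of its reads lay on no single gene. Its scaled Hspa5, Phgdh and Trib3 stood far above those of the other cKO IFNγ library. Its TMM factor was 0.460, against 0.891 in the other, and its scaled levels depend on that factor. It held 7612 Hspa5 counts of 3614967, against 21445 of 9543916 in the other, so the Hspa5 distance rests on the scaling. Libraries WT day 5 replicate 1 and cKO day 5 replicate 1 were high for Asns, Trib3 and Chac1, WT day 7 replicate 2 was low for Asns, Psat1 and Chac1, and WT no antibody replicate 2 and cKO IFNAR1 antibody replicate 1 were high for Hspa5. Sets 1 and 3 were not independent of each other: same-numbered libraries of these sets deviated together (r 0.181 to 0.719 over genes), and differed less from each other (chi-square per degree of freedom 13.3 to 43.2) than from set 2 (57.3 to 232).

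In GRCm38 the genes lie at chr15:80255184-80257541 (Atf4, + strand), chr10:127290774-127296288 (Ddit3, + strand), chr2:152337422-152344032 (Trib3, - strand), chr2:119351229-119354381 (Chac1, + strand), chr4:132492032-132510501 (Sesn2, - strand), chr6:7675169-7693254 (Asns, - strand), chr3:98313170-98339990 (Phgdh, - strand), chr19:15904678-15947337 (Psat1, - strand), chr3:49892526-50443614 (Slc7a11, - strand) and chr2:34771970-34777547 (Hspa5, + strand). Ddit3 shares 105 exonic bases with genes of its own strand and 81 with genes of the other strand. The overlapping genes are Gm4189, another entry named Ddit3, and Mars. Phgdh has a pseudogene, Phgdh-ps1. Counting took no account of strand, and reads that lay on no single gene were left out. Reads from the shared bases could thus be missing from the Ddit3 count.

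The regulators of the pathway bind known DNA elements, and the promoters among the 10 genes that hold one of these are shown. ATF4 acts as a dimer with C/EBP proteins at the composite element TGATGNAA. The ER stress element, at which NF-Y and ATF6 act, is CCAAT and CCACG with 9 bases between them. Both were searched on both strands in the RefSeq promoters of GRCm38.p6, from 250 bases before each gene's start to 50 bases after it. By RefSeq the last part is transcribed first-exon sequence. These starts can differ from the ends of the gene spans given above, as for Trib3, Asns and Hspa5. An element before a RefSeq start can thus lie inside such a span, and one after it outside. A window was given for all 10 genes. The composite element stood in the windows of 4 of the 10 genes, Trib3, Asns, Chac1 and Slc7a11, against 4.51% of 27025 genes. The ER stress element stood in 1 of the 10, Hspa5, against 0.137% of genes. Capitals mark the matches, written 5′ to 3′ on each gene's own strand.

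The Trib3 window, chr2:152344011-152344310 on the - strand, holds its match on the opposite strand, after the RefSeq start.

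Trib3: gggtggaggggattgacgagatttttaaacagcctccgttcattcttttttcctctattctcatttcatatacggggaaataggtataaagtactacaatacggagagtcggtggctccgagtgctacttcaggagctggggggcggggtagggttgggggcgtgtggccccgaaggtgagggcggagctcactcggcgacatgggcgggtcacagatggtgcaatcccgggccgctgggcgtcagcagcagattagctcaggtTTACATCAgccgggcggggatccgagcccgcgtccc

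The Asns window, chr6:7693160-7693459 on the - strand, holds the element on the gene's own strand, 23 bases before the start.

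Asns: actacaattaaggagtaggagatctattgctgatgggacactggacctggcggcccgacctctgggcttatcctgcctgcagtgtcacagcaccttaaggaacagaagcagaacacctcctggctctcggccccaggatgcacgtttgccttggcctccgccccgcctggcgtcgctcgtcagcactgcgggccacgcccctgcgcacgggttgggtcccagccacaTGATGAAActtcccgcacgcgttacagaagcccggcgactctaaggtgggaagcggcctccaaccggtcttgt

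In Chac1, chr2:119350992-119351291 on the + strand, the match is on the opposite strand and 193 bases before the start.

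Chac1: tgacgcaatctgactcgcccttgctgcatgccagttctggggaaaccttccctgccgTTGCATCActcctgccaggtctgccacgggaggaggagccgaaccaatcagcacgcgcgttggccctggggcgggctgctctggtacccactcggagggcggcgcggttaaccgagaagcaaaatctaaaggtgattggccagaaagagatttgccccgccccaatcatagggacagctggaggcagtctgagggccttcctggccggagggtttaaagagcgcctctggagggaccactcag

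Slc7a11, chr3:50443564-50443863 on the - strand, has a match on each strand, 66 and 47 bases before the start.

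Slc7a11: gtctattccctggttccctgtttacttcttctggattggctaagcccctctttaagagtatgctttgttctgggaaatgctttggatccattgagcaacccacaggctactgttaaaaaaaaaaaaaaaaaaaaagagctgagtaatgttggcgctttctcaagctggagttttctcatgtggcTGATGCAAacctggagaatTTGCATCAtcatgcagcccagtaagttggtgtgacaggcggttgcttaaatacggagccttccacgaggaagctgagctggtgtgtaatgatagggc

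Hspa5, chr2:34771840-34772139 on the + strand, has its ER stress element 65 bases before the start, in the orientation of the gene.

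Hspa5: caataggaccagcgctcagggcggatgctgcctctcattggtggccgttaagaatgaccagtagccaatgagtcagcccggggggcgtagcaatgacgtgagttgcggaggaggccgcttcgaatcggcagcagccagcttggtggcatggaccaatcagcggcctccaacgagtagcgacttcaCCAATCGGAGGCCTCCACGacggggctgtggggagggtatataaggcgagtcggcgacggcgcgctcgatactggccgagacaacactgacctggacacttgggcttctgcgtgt

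No match stood in the windows of Atf4, Ddit3, Sesn2, Psat1 or Phgdh, which says only that these letters are not in these windows. Among the other lists of genes described here, the composite element stood in 5 of 9 aminoacyl-tRNA synthetases with a window, and the ER stress element in 7 of 17 ER chaperones and other genes of the unfolded protein response.

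Levels of the genes differed by orders of magnitude, and the order was not the same in every macrophage. Per kilobase of exon, Hspa5 was the most abundant in WT day 7 cells at 247 ± 107 CPM per kb (SD, n = 3), followed by Atf4 at 74.3 ± 40.3 and Asns at 19 ± 13.5. Psat1 (15.5), Sesn2 (10.9), Phgdh (8.49), Ddit3 (7.75), Trib3 (5.05), Chac1 (2.91) and Slc7a11 (0.418) followed, and from Asns down, each mean lay within 1 SD of its neighbour by the larger SD of the pair. In WT cells of the antibody experiment without antibody, Hspa5 (393 ± 230.0) and Atf4 (181) again led, and Sesn2 (69.6 ± 15.3) came next. Trib3 stood at 62.8 ± 10.1 CPM per kb, above Asns (48.7 ± 10.9) and Ddit3 (43.4 ± 21.6). By the same rule the mean of Trib3 lay within 1 SD of Sesn2 and of Ddit3. Peritoneal macrophages had the steepest order. Their Hspa5 stood at 631 ± 76.7 CPM per kb, while Asns (0.501), Phgdh (0.365), Trib3 (0.200), Chac1 (0.0611) and Slc7a11 (0.0221) all stayed below 1. Trib3, Chac1 and Slc7a11 did not pass the filter on low counts there. Libraries of peritoneal macrophages were made with another kit than those of BMDMs, so cell type and kit cannot be told apart in this order. The antibody experiment ended earlier than day 7 by the methods. Experiments were normalised apart from each other and their levels were not tested against each other.

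**Figure D1:**
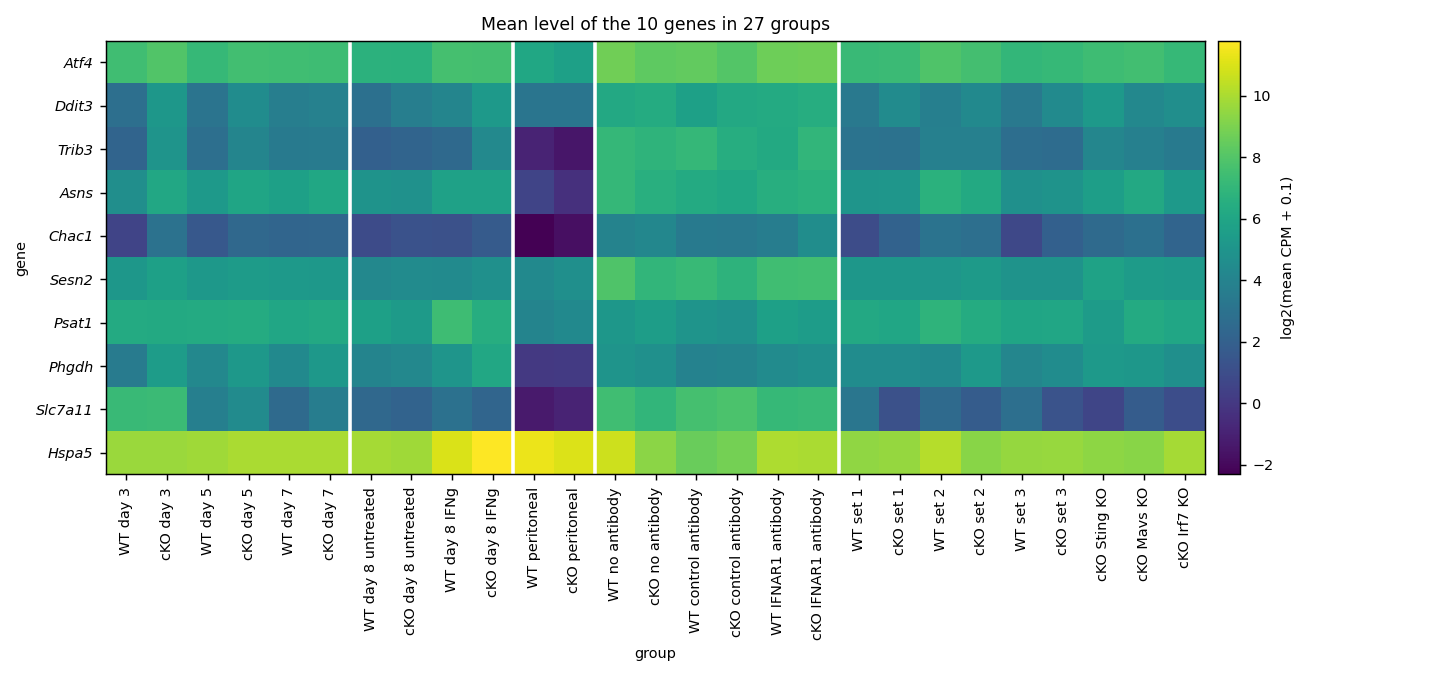
Heat map of the mean log2 level (CPM, a constant of 0.1 added) of the 10 genes (rows) in the 27 groups (columns), each group the mean of 2 or 3 libraries. Hspa5 and Atf4 are high in every column, while Trib3, Chac1, Slc7a11, Asns and Phgdh are lowest in the peritoneal macrophages, whose libraries were made with another kit.

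In the first comparison, cKO with WT progenitors on day 3, Ddit3, Trib3 and Phgdh rose. Ddit3 stood at 6.27, 6.63 and 8.48 CPM in the 3 WT libraries and at 41.6, 30.2 and 36.6 in the 3 cKO libraries. It rose 5.06-fold (log2 2.34, SE 0.42, adjusted p = 0.00279). Every cKO library was above every WT library. Trib3, which CHOP and ATF4 induce, stood at 4.98, 3.87 and 4.83 CPM in WT and 34.1, 33.0 and 26.9 in cKO, a rise of 6.86-fold (log2 2.78, SE 0.547, adjusted p = 0.00507). Phgdh, which takes 3-phosphoglycerate from glycolysis into serine synthesis, stood at 10.6, 13.3 and 11.6 CPM in WT and 53.4, 45.0 and 37.7 in cKO, a rise of 3.83-fold (log2 1.94, SE 0.47, adjusted p = 0.0178). The Phgdh call was lost when any WT library or cKO replicate 1 was left out (log2 1.78 to 2.01, adjusted p = 0.0564 to 0.0784).

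Thus 3 of the 10 genes were called, all higher, against 7.73% of all genes tested (1233 of 15955). With the replicate number as a block, 5 were called, and the added genes were Chac1 and Sesn2. Same-numbered libraries deviated together here with r of 0.106 to 0.452, a pairing read from these data and not from the labels. Chac1 stood at 1.77, 1.11 and 1.35 CPM in WT and 8.99, 7.12 and 7.42 in cKO (log2 2.47, adjusted p = 0.0735, and 0.0326 with the block). Sesn2 stood at 41.3, 30.9 and 36.1 CPM in WT and 63.6, 50.2 and 42.7 in cKO (log2 0.53, adjusted p = 0.143, and 0.0423 with the block). Asns stood at 28.6, 23.3 and 23.5 CPM in WT and 76.2, 70.0 and 66.7 in cKO (log2 1.5, adjusted p = 0.116). Groups of these 3 genes did not overlap, nor did those of Atf4 (168 to 188 CPM in WT, 228 to 273 in cKO, log2 0.47, adjusted p = 0.409). Of all genes tested, 18.3% were higher in cKO without overlap.

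The other 3 genes overlapped between the genotypes. Psat1, the enzyme after Phgdh, stood at 93.1, 85.3 and 56.9 CPM in WT and 86.8, 71.6 and 74.0 in cKO (log2 -0.02, adjusted p = 0.986). Slc7a11 stood at 224, 49.6 and 186 CPM in WT and 165, 159 and 142 in cKO, with 1 WT library far below the others (adjusted p = 0.988). Hspa5 stood at 904, 860.0 and 679 CPM in WT and 872, 785 and 760.4 in cKO (adjusted p = 0.978). Over the 10 genes the median log2 difference was 1.01, and over all genes tested it was 0.04.

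Around these genes, 5 of 11 other transcription factors and targets of ATF4 rose in cKO on day 3 and none fell (4 to 6 rose when 1 library was left out). Stc2, a secreted glycoprotein induced by ER stress, rose by 2.58 on the log2 scale (adjusted p = 0.0263) from 0.00 to 0.337 CPM in WT, and Nupr1, a stress-induced chromatin protein, rose by 1.83 (adjusted p = 0.00700). Of 7 eIF2 kinases and phosphatase subunits, Eif2ak2 (PKR) alone was called, higher by 1.73 (adjusted p = 0.00118). No gene was called among 15 of amino acid synthesis and transport, 13 of tRNA charging or 21 ER chaperones and unfolded protein response genes. Other features moved with these genes. The 8 interferon genes all rose (44.0 to 61.4 CPM summed in WT, 1047 to 1455 in cKO). Of 5 B cell markers, 3 rose (0 to 3 when 1 library was left out, 31.6 to 41.2 CPM summed in WT, 61.7 to 100.2 in cKO), and neutrophil markers summed to 1866 to 3410.5 CPM in WT and 2947 to 4421 in cKO. Their part in the difference was not tested.

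The next question was how these genes behaved as the cultures matured. On day 5, Ddit3 stood at 10.2, 8.23 and 7.33 CPM in WT and 44.4, 11.7 and 13.9 in cKO. All cKO libraries were above all WT libraries, and replicate 1 stood far above the others (log2 1.44, adjusted p = 0.0785, 0.0304 with the block, and log2 0.58 with adjusted p = 0.647 without cKO day 5 replicate 1). No other member was called on day 5, so none of 10 passed edgeR's test against 2.83% of all genes, while 2 had an unadjusted p below 0.05 and DESeq2 called 1. Hspa5 was also above WT without overlap (782, 932 and 915 CPM in WT, 1080.2, 982 and 1006 in cKO, log2 0.22, adjusted p = 0.714), as were 15.4% of all genes. The same 2 libraries, replicate 1 of each genotype, also led the other genes. Asns stood at 69.8, 24.9 and 23.4 CPM in WT and 98.1, 40.5 and 51.9 in cKO, and Trib3 at 11.9, 4.42 and 4.64 in WT and 32.3, 8.73 and 11.2 in cKO. In cKO day 5 replicate 1 the interferon genes summed to 2827 CPM, against 419 in the lowest cKO library of that day.

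On day 7 the groups of all 10 genes overlapped, while 9.51% of all genes were higher and 7.09% lower in cKO without overlap. Ddit3 stood at 17.6, 10.5 and 11.7 CPM in WT and 21.6, 11.4 and 11.7 in cKO, and Trib3 at 14.2, 3.36 and 14.6 in WT and 14.4, 11.3 and 9.65 in cKO. Asns stood at 77.4, 9.58 and 69.2 CPM in WT and 57.3, 76.7 and 67.2 in cKO. The WT library at 9.58 was also the lowest for Psat1 (18.5 CPM against 87.9 and 90.8), Chac1 (0.350 against 8.71 and 5.22) and Atf4 (80.9 against 271 and 174). None of the 10 genes was called by edgeR or DESeq2, none had an unadjusted p below 0.05, and the share over all genes was 1.40%. Without that WT library none was called either, and log2 differences lay between -0.50 for Chac1 and 0.71 for Slc7a11. For the cKO-to-WT difference on day 7 minus that on day 3, edgeR called 7 genes in all (0.0439%) and none of the 10, with 3 at an unadjusted p below 0.05 and 2 called by DESeq2 (Ddit3 and Trib3). The difference for Ddit3 was -2.17 (adjusted p = 0.111, 0.0124 by DESeq2), and that for Trib3 was -2.65 (adjusted p = 0.127). For the other 8 genes it lay between -2.44 for Chac1 and 1.04 for Slc7a11 (adjusted p = 0.297 to 0.991).

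Over time within a genotype, Slc7a11 was the member that changed. This importer supplies cystine for glutathione. In WT it stood at 224, 49.6 and 186 CPM on day 3, 17.9, 10.3 and 12.6 on day 5, and 9.34, 2.45 and 5.69 on day 7. From day 3 to day 5 it fell by 3.49 on the log2 scale in WT (SE 0.62, adjusted p = 0.0109), the only call among the 10 against 2.64% of all genes. In cKO it stood at 165, 159 and 142 CPM on day 3, 25.6, 25.9 and 15.8 on day 5, and 25.3, 7.44 and 4.35 on day 7. It fell by 2.79 from day 3 to day 5 (SE 0.599, adjusted p = 0.0197), again the only call, against 3.59% of all genes. The call in WT was lost without day 5 replicate 2 or 3 (log2 -3.35 and -3.44, adjusted p = 0.0671 and 0.0599), and that in cKO without day 3 replicate 1 or 2 or day 5 replicate 2 or 3 (log2 -2.90 to -2.59, adjusted p = 0.063 to 0.124). Without cKO day 5 replicate 1, Ddit3 (log2 -1.48, adjusted p = 0.00989) and Sesn2 (log2 -0.66, adjusted p = 0.0290) were called lower too. From day 5 to day 7 none of the 10 was called in WT (0.238% of all genes) or cKO (0.0564%), none had an unadjusted p below 0.05, and DESeq2 called none. Genes under the oxidative stress factor NRF2, of which Slc7a11 is one, moved alongside in WT: 6 of 8 fell from day 3 to day 5, led by Hmox1 (log2 -2.30, adjusted p = 0.0202) and Srxn1 (log2 -1.81, adjusted p = 0.0144), but only 0 to 4 were called when 1 library was left out. Neutrophil markers also fell then, 6 of 8 in WT (2 to 6 when 1 library was left out) and 4 of 8 in cKO (0 to 8), and so did 3 of 5 B cell markers in each genotype (1 to 3 in WT, 2 to 3 in cKO), and their part in the change was not tested.

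**Figure D2:**
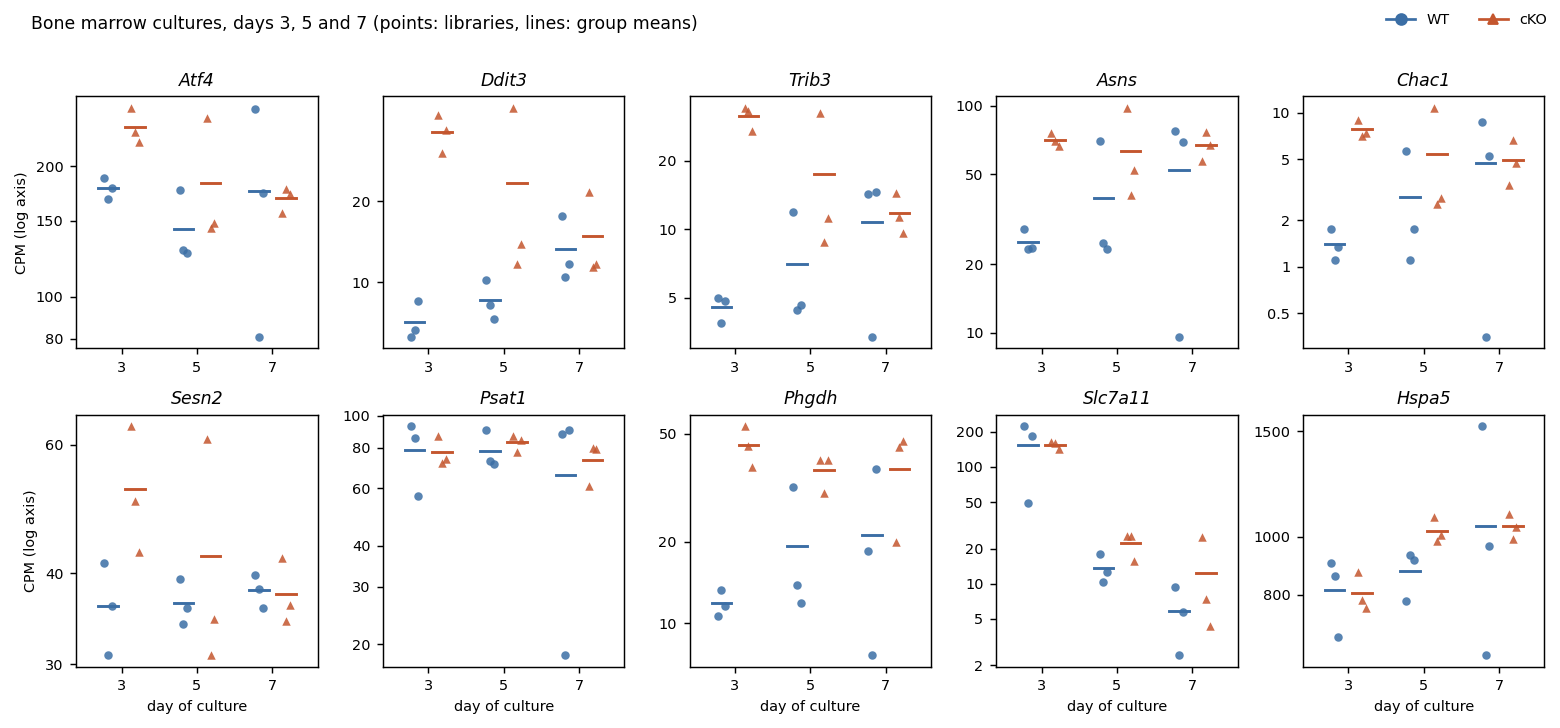
Levels (CPM, log axis) of the 10 genes on days 3, 5 and 7, with each point 1 library and short lines at the means of WT and cKO cells (3 libraries each). Ddit3, Trib3, Chac1, Asns and Phgdh of the cKO stand above WT on day 3 and overlap it on day 7, while Slc7a11 falls after day 3 in both genotypes.

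In day 8 BMDMs the question was whether IFNγ changes the pathway, and whether it does so alike in both genotypes. Without IFNγ none of the 10 genes was called by edgeR or DESeq2 in cKO against WT (0.612% of all genes), and 1 had an unadjusted p below 0.05. That gene was Ddit3, at 6.04, 8.92 and 6.65 CPM in WT and 12.2 and 13.9 in cKO (log2 0.85, SE 0.229, adjusted p = 0.224), and its groups did not overlap. Psat1 did not overlap either and was lower in cKO (59.1, 46.1 and 53.1 CPM in WT, 37.6 and 45.1 in cKO, log2 -0.35, adjusted p = 0.913). Of all genes, 18% were higher and 13.9% lower without overlap. Atf4 stood at 104, 111 and 112 CPM in WT and 99.4 and 108 in cKO.

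IFNγ raised 5 of the 10 genes in WT, against 40.1% of all genes called in either direction. Psat1 stood at 59.1, 46.1 and 53.1 CPM without and 142, 197 and 167 with IFNγ, a rise of 3.19-fold (log2 1.68, SE 0.163, adjusted p = 3e-05). Hspa5, the major ER chaperone, stood at 888, 1049.7 and 955 CPM without and 2145, 2013 and 2082 with IFNγ, a rise of 2.16-fold (log2 1.11, SE 0.21, adjusted p = 0.00205). Ddit3 rose to 19.2, 18.6 and 12.5 CPM (log2 1.22, SE 0.21, adjusted p = 0.00118). Atf4 rose to 214, 192 and 191 CPM (log2 0.87, SE 0.137, adjusted p = 0.000713), and Asns rose from 26.7, 34.4 and 29.1 to 65.6, 48.7 and 47.8 CPM (log2 0.85, SE 0.19, adjusted p = 0.00536). Groups of none of these 5 genes overlapped (31.5% of all genes were higher without overlap), and leaving out any 1 library left all 5 called. Phgdh, whose product feeds Psat1, stood at 20.0, 12.6 and 16.1 CPM without and 41.7, 22.5 and 32.8 with IFNγ (log2 1.0, adjusted p = 0.0662). Trib3 stood at 3.51, 4.25 and 3.94 CPM without and 7.29, 3.87 and 5.54 with IFNγ, and its groups overlapped.

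In the cKO IFNγ raised 7 of the 10 genes, against 33.6% of all genes called. Hspa5 stood at 853 and 921 CPM without and 4596 and 2526 with IFNγ (log2 2.0, SE 0.264, adjusted p = 0.000345). Ddit3 stood at 12.2 and 13.9 CPM without and 39.2 and 39.5 with IFNγ, a rise of 3.02-fold (log2 1.59, SE 0.251, adjusted p = 0.000996). Trib3 stood at 3.90 and 5.18 CPM without and 28.4 and 11.8 with IFNγ (log2 2.03, SE 0.418, adjusted p = 0.00442). The first of the IFNγ values is the shallow library each time, and for Hspa5 and Trib3 it is far the higher after scaling by its low TMM factor. Atf4 (log2 0.86, adjusted p = 0.00348), Asns (log2 0.99, adjusted p = 0.0100), Psat1 (log2 1.09, adjusted p = 0.00245) and Phgdh (log2 1.82, adjusted p = 0.0169) rose as well. Without the shallow library 6 of the 7 were still called, with log2 changes of 1.54 for Hspa5, 1.63 for Ddit3, 1.41 for Trib3, 1.06 for Atf4, 1.23 for Asns and 1.05 for Psat1. Phgdh then stood at log2 0.78 (adjusted p = 0.0782), its value in that library being 110.5 CPM against 32.4 in the other. When only the groups compared were fitted, 2 of the 7 were called, Ddit3 and Hspa5.

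With IFNγ, cKO and WT differed in 3 of the 10 genes, against 4.83% of all genes. Ddit3 was 2.35-fold higher in the cKO (log2 1.23, SE 0.225, adjusted p = 0.0172) and Trib3 3.28-fold higher (log2 1.71, SE 0.375, adjusted p = 0.0339). Psat1 was lower in the cKO, at 92.4 and 84.1 CPM against 142, 197 and 167 in WT (log2 -0.94, SE 0.186, adjusted p = 0.0238). Groups of these 3 did not overlap. Chac1 (log2 0.62), Sesn2 (log2 0.33) and Hspa5 (log2 0.78) were higher and Slc7a11 (log2 -0.72) lower without overlap but were not called (adjusted p = 0.0828 to 0.446), beside 15.8% and 18.7% of all genes. The 3 calls remained without the shallow library (Ddit3 log2 1.26, adjusted p = 0.0092, Trib3 1.08, adjusted p = 0.0495, Psat1 -0.98, adjusted p = 0.0133). All 3 were lost without WT IFNγ replicate 3 (Ddit3 log2 1.06, Trib3 1.71, Psat1 -0.95, adjusted p = 0.0764, 0.127 and 0.0925) and with only the groups compared. Trib3 (log2 1.52, adjusted p = 0.0818) and Psat1 (log2 -0.81, adjusted p = 0.0594) were also lost without WT IFNγ replicate 2. Whether the response to IFNγ itself differed was tested as an interaction, for which edgeR called none of 13075 genes (0.00%), with 1105 at an unadjusted p below 0.05, while DESeq2 called 83. Of the 10 genes 3 had an unadjusted p below 0.05 and DESeq2 called none. The interaction was 1.5 for Trib3 (adjusted p = 0.551), 0.90 for Hspa5 (adjusted p = 0.559) and -0.58 for Psat1 (adjusted p = 0.587).

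**Figure D3:**
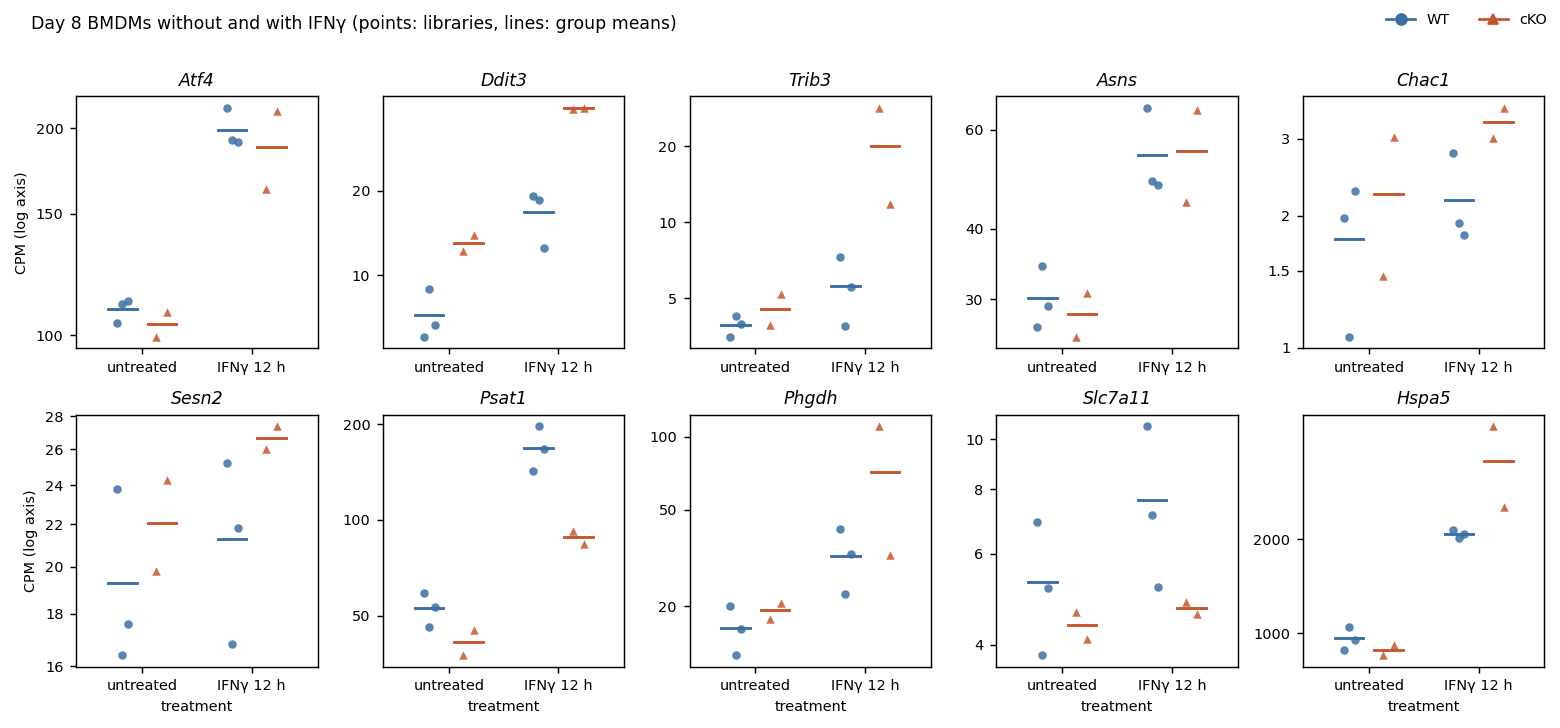
Levels (CPM, log axis) of the 10 genes in day 8 BMDMs without and with IFNγ for WT (3 libraries each) and cKO (2 each), with points for libraries and short lines for means. Hspa5, Psat1, Atf4, Asns and Ddit3 stand higher with IFNγ in both genotypes, Ddit3 and Trib3 highest in the cKO with IFNγ, and Psat1 highest in WT with IFNγ.

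Other genes of the pathway moved in both directions under IFNγ, in a comparison that called 40.1% of all genes in WT and 33.6% in cKO. Of 21 ER chaperones and unfolded protein response genes, 10 rose and 1 fell in WT (8 to 9 rose when 1 library was left out), among them Manf (log2 1.03, adjusted p = 0.000187) and Creld2 (log2 0.94, adjusted p = 0.0174), both secreted or luminal ER stress proteins. In the cKO 12 rose and none fell (6 to 16 when 1 library was left out, and 16 without the shallow library), led by Creld2 (log2 1.61, adjusted p = 0.00468) and Syvn1 (log2 1.52, adjusted p = 6.03e-05), a ubiquitin ligase of ER-associated degradation. Amino acid genes went both ways in WT, 3 of 15 up and 5 down. The glycine transporter Slc6a9 (log2 2.50) and the mitochondrial folate enzyme Mthfd2 (log2 0.83) rose, and Slc1a5 (log2 -1.41) and Pycr1 (log2 -1.21) fell. Wars, the tryptophanyl-tRNA synthetase and a known IFNγ target, rose 7.0-fold in WT and 7.87-fold in cKO, while Iars fell in both (log2 -0.78 and -1.32). Among the stress factors, Nupr1 (log2 1.80 in WT, 2.49 in cKO) and Cebpb, a partner of ATF4 (log2 1.46 and 1.95), rose, and the stress cytokine Gdf15 fell (log2 -2.62 and -1.78). Eif2ak2 rose by 2.23 in WT and 1.34 in cKO, Ppp1r15b, a subunit that directs eIF2 dephosphorylation, rose by 1.35 and 1.54, and the amino acid sensor Eif2ak4 (GCN2) fell by 0.91 and 1.11, all on the log2 scale. Of the proliferation genes, 1 of 8 fell in WT and 5 of 8 in cKO (1 to 4 in each when 1 library was left out), and their part was not tested.

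In peritoneal macrophages, which matured in the animal, none of the 7 genes that passed the filter was called in cKO against WT by edgeR or DESeq2, against 0.971% of all genes, and 1 had an unadjusted p below 0.05. Ddit3 stood at 10.9, 8.30 and 7.29 CPM in WT and 11.9, 6.86 and 8.32 in cKO (log2 0.05, SE 0.272, adjusted p = 0.978), so its groups overlapped. Hspa5 stood at 2757, 2940.0 and 2309.6 CPM in WT and 2645, 1429.6 and 2192 in cKO. Asns, at 1.24, 1.92 and 0.957 CPM in WT and 0.556, 0.581 and 0.910 in cKO, was the 1 gene whose groups did not overlap (log2 -1.06, adjusted p = 0.512), and 6.49% of all genes were lower without overlap. Slc7a11 was at most 0.638 CPM in any of the 6 libraries and 0.00 in 1. In the same cells 5 of 8 interferon genes rose (212 to 263 CPM summed in WT, 452 to 586 in cKO).

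The antibody experiment addressed whether type I interferon signalling lies behind the changes in the cKO. Without antibody none of the 10 genes was called in cKO against WT by edgeR (7.10% of all genes), with 3 at an unadjusted p below 0.05 and 2 called by DESeq2 (Sesn2 and Hspa5). Both had lower means in the cKO. Sesn2, which restrains mTORC1 when amino acids are short, stood at 183, 287 and 256 CPM in WT and 136, 118 and 128 in cKO (log2 -0.92, adjusted p = 0.0580). Hspa5 stood at 839, 2736 and 1410.5 CPM in WT and 786, 594 and 536 in cKO (log2 -1.38, adjusted p = 0.0720). The WT libraries were far apart, and without WT replicate 1 Sesn2 (log2 -1.09), Hspa5 (log2 -1.70) and Asns (log2 -0.62) were called lower in cKO. Atf4 was lower without overlap (347 to 512 CPM in WT, 288 to 335 in cKO, log2 -0.45, adjusted p = 0.226), as were Sesn2, Hspa5 and 19.2% of all genes. Chac1 was higher without overlap (12.3 to 17.9 CPM in WT, 18.1 to 19.4 in cKO, log2 0.24, adjusted p = 0.629), as were 20.2%. Ddit3 stood at 45.8, 116 and 61.0 CPM in WT and 88.0, 70.6 and 85.8 in cKO and overlapped. Of 10 other stress factors and ATF4 targets 5 fell (1 to 7 when 1 library was left out), led by Gdf15 (log2 -2.60, adjusted p = 0.0329) and Vldlr (log2 -2.53, adjusted p = 0.00917), and of 21 ER genes 7 fell (1 to 10), led by Ern1 (log2 -1.49) and Dnajb9 (log2 -1.48). The 8 interferon genes all rose (65.7 to 124 CPM summed in WT, 259 to 719.9 in cKO), and their part was not tested.

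With the control antibody none was called in cKO against WT (4.45% of all genes), with 1 at an unadjusted p below 0.05 and none by DESeq2. Ddit3 stood at 58.0, 51.3 and 47.0 CPM in WT and 79.6, 75.2 and 62.4 in cKO, without overlap (log2 0.47, adjusted p = 0.669), as were 18.2% of all genes. Atf4 (log2 -0.34), Sesn2 (log2 -0.39) and Trib3 (log2 -0.59) were lower without overlap (adjusted p = 0.293 to 0.603), as were 18.5%. Of 8 interferon genes 7 rose (58.8 to 66.7 CPM summed in WT, 206 to 331 in cKO). With IFNAR1 antibody none was called either (0.675% of all genes), with 2 at an unadjusted p below 0.05 and none by DESeq2. Chac1 was the 1 gene without overlap there, at 16.3, 7.03 and 14 CPM in WT and 37.7, 17.7 and 16.8 in cKO (log2 0.95, adjusted p = 0.230), beside 4.19% of all genes. Of 8 interferon genes 6 rose (4 to 6 when 1 library was left out, 35.7 to 44.9 CPM summed in WT, 153 to 200.2 in cKO). The change of the genotype difference between IFNAR1 and control antibody was tested directly. By edgeR no gene of 17191 was called (0.00%), with 975 at an unadjusted p below 0.05 and 49 called by DESeq2. Of the 10 genes 2 had an unadjusted p below 0.05 and DESeq2 called none, and the value was 1.33 for Trib3 (adjusted p = 0.504), 1.09 for Chac1 (adjusted p = 0.786) and -0.31 for Ddit3 (adjusted p = 0.951).

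IFNAR1 antibody was then compared with control antibody within each genotype. In WT 1 of the 10 was called, against 9.89% of all genes. Psat1 stood at 37.5, 25.3 and 31.3 CPM with control and 44.8, 64.7 and 46.5 with IFNAR1 antibody (log2 0.73, SE 0.208, adjusted p = 0.0391). Hspa5 stood at 417, 351 and 387 CPM with control and 1362, 1305 and 476 with IFNAR1 antibody (log2 1.44, adjusted p = 0.0517), so that every library with IFNAR1 antibody was higher, but 1 by little. Trib3 went the other way, at 133, 134 and 131 CPM with control and 78.9, 44.5 and 105 with IFNAR1 antibody (log2 -0.80, adjusted p = 0.0641). The Psat1 call was lost in 4 of 6 fits that left out 1 library (log2 0.54 to 0.82), and without WT IFNAR1 antibody replicate 3, 4 genes were called, Psat1, Hspa5 (log2 1.79), Trib3 (log2 -1.10) and Phgdh (log2 0.63).

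In the cKO 2 of the 10 were called, against 4.03% of all genes. Chac1 stood at 11.2, 9.94 and 9.65 CPM with control and 37.7, 17.7 and 16.8 with IFNAR1 antibody (log2 1.23, SE 0.311, adjusted p = 0.0369). Asns stood at 63.3, 79.7 and 60.1 CPM with control and 103, 104 and 102 with IFNAR1 antibody (log2 0.62, SE 0.165, adjusted p = 0.0477). Neither had overlapping groups. The Asns call was lost in each of 6 fits that left out 1 library (log2 0.54 to 0.75, adjusted p = 0.0754 to 0.214), and the Chac1 call in 4 of 6, with log2 0.75 and adjusted p = 0.207 without cKO IFNAR1 antibody replicate 1, the library at 37.7 CPM. Atf4 (232 to 293 CPM with control, 334 to 618 with IFNAR1 antibody) and Hspa5 (391 to 533 and 636 to 1723) did not overlap either, with log2 differences of 0.71 (adjusted p = 0.101) and 1.17 (adjusted p = 0.158), and 14% of all genes were higher without overlap. The leucine transporter subunit Slc7a5, outside the 10, rose with IFNAR1 antibody in both genotypes (log2 1.05 in WT, 1.33 in cKO). The proliferation genes rose as well, 7 of 8 in WT (6 to 7 when 1 library was left out) and 6 of 8 in cKO (0 to 6). Stromal markers of the cKO summed to 198 to 363 CPM with control and 49.5 to 98.3 with IFNAR1 antibody, none of them called, and the part of both was not tested.

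The control antibody itself was compared with no antibody, and shares its samples with the comparisons above. In WT 3 of the 10 were called, all lower with control antibody, against 8.90% of all genes. Hspa5 fell from 839, 2736 and 1410.5 CPM to 417, 351 and 387 (log2 -2.11, SE 0.457, adjusted p = 0.0148), and without WT no antibody replicate 2 stood at log2 -1.55 (adjusted p = 0.0659). Phgdh fell from 22.4, 38.1 and 34.0 CPM to 18.1, 12.7 and 14.4 (log2 -1.07, SE 0.214, adjusted p = 0.0109). Asns fell from 104, 163 and 132 CPM to 90.1, 72.5 and 75.7 (log2 -0.74, SE 0.164, adjusted p = 0.0156). All 3 calls were lost without WT control antibody replicate 2 (Hspa5 log2 -2.05, Phgdh -0.96, Asns -0.68, adjusted p = 0.0758 to 0.0930) or 3 (Hspa5 log2 -2.11, Phgdh -1.04, Asns -0.71, adjusted p = 0.0552 to 0.0723). Around them 12 of 21 ER genes fell (1 to 17 when 1 library was left out), led by Manf (log2 -1.85) and Herpud1 (log2 -1.82), and so did 4 of 15 amino acid genes, led by Aldh1l2 (log2 -2.83) and Slc7a5 (log2 -1.26). Of 8 proliferation genes 6 fell (0 to 7 when 1 library was left out). In the cKO none of the 10 was called by edgeR (1.46% of all genes), with 4 at an unadjusted p below 0.05 and 2 called by DESeq2 (Psat1 and Phgdh). Psat1 stood at 54.1, 47.2 and 39.3 CPM without antibody and 28.1, 34.5 and 21.6 with control antibody (log2 -0.74, adjusted p = 0.0924).

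**Figure D4:**
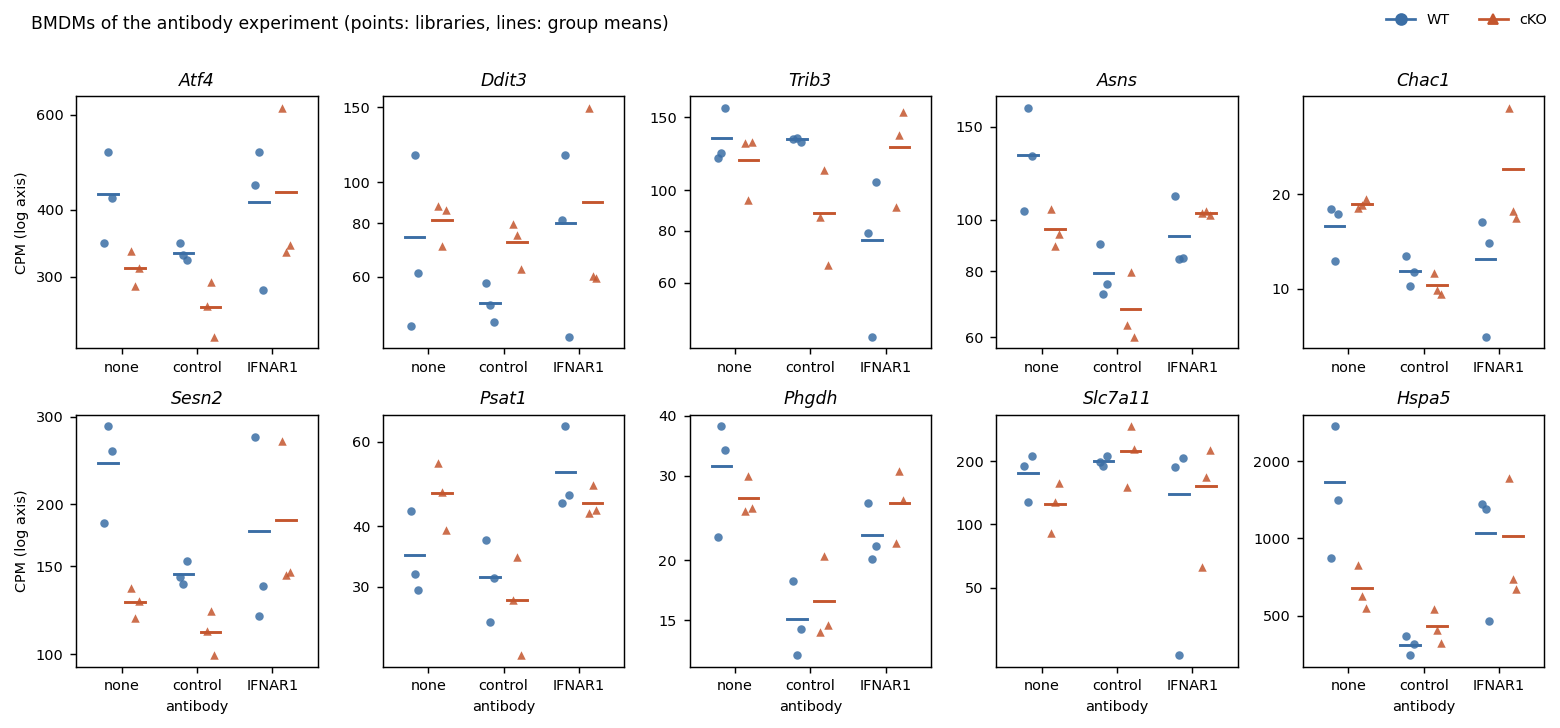
Levels (CPM, log axis) of the 10 genes with no antibody, control antibody and IFNAR1 antibody in WT and cKO cells (3 libraries each), with points for libraries and short lines for means. Hspa5 is lowest with control antibody in WT, Chac1 and Asns of the cKO stand higher with IFNAR1 than with control antibody, and 1 library lies far above the others in several panels.

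The BMDM sets and double knockouts were the most deeply sequenced of the 5 experiments. In set 1, 2 of the 10 genes were called in cKO against WT, in set 2 there were 3 and in set 3 there were 2, against 34.7%, 21.0% and 34.9% of all genes. Ddit3 was called higher in each. In set 1 it stood at 11.1, 9.16 and 10.7 CPM in WT and 20.9, 20.8 and 24.1 in cKO (2.13-fold, log2 1.09, SE 0.144, adjusted p = 3e-06). In set 2 it stood at 14.2, 13.9 and 12.4 CPM in WT and 20.6, 22.9 and 19.6 in cKO (1.56-fold, log2 0.64, SE 0.138, adjusted p = 0.00136), and in set 3 at 11, 9.55 and 10.1 in WT and 19.6, 24.5 and 20.9 in cKO (2.12-fold). No WT library reached a cKO library in any set. Of all genes, 21.3% and 20.8% were higher in cKO without overlap in sets 1 and 3, and 20.1% and 22.4% were lower.

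Chac1 was called higher in set 1 (1.65, 2.75 and 1.18 CPM in WT, 4.06, 4.83 and 3.97 in cKO, 2.24-fold, adjusted p = 0.00433) and set 3 (2.56-fold, adjusted p = 0.00136), and in set 2 it overlapped (7.15, 8.68 and 8.52 CPM in WT, 6.09, 7.14 and 8.21 in cKO). Hspa5 was called lower in set 2, at 1219, 1186 and 1149 CPM in WT and 600.3, 774 and 533 in cKO (log2 -0.90, SE 0.112, adjusted p = 2e-06), and overlapped in sets 1 and 3. Atf4 was called lower in set 2, at 240.4, 236 and 236 CPM in WT and 183, 199.8 and 181 in cKO (log2 -0.34, SE 0.097, adjusted p = 0.0129). Phgdh was higher in set 2 without overlap (19.8, 22.3 and 20.3 CPM in WT, 35.4, 43.7 and 35.5 in cKO, log2 0.88, adjusted p = 0.0669), and so was Sesn2 (32.2, 33.8 and 36.1 CPM in WT, 42.5, 40.5 and 40.6 in cKO, log2 0.28, adjusted p = 0.0516). Lower in set 2 without overlap, but not called, were Asns (97.2 to 107 CPM in WT, 71.5 to 82.2 in cKO, log2 -0.45, adjusted p = 0.273), Psat1 (108 to 121 and 78.2 to 87.3, log2 -0.51, adjusted p = 0.192) and Slc7a11 (5.62 to 5.89 and 2.41 to 3.89, log2 -0.75, adjusted p = 0.584). In set 2, 20.0% of all genes were higher and 24.5% lower without overlap. Replicate 1 of WT stood apart in sets 1 and 3 for Slc7a11, at 25.8 CPM against 1.88 and 0.493 in set 1 and 18.8 against 1.64 and 0.912 in set 3. Without WT set 3 replicate 2, Asns (log2 0.69, adjusted p = 0.0436) and Phgdh (log2 1.01, adjusted p = 0.0224) were called higher in set 3 too.

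The other lists are read beside the 34.7%, 21.0% and 34.9% of all genes called in sets 1, 2 and 3. Of 21 ER chaperones and unfolded protein response genes 18 fell in set 2 and none rose (15 to 18 fell when 1 library was left out), led by Sdf2l1 (log2 -1.36, adjusted p = 3.43e-05) and Calr (log2 -1.19, adjusted p = 5.29e-07). In set 1 there were 5 that rose and 3 that fell, and in set 3 there were 5 and 4, with Herpud1 lowest in both (log2 -0.86 and -0.97). Stc2 rose in each set (log2 2.11, 2.21 and 1.97), as did Eif2ak2 (log2 0.87, 0.66 and 0.65). Other features moved with these genes. Interferon genes summed to 214 to 397 CPM in WT and 652 to 971 in cKO over sets 1 and 3 (6 of 8 rose in each), and to 337 to 399 and 696 to 1019 in set 2 (8 of 8 rose). Neutrophil markers summed to 104 to 167 CPM in WT and 263 to 385 in cKO over sets 1 and 3 (6 of 8 rose in each), and to 137 to 215 and 188 to 209 in set 2 (2 of 8). B cell markers summed to 95.1 to 192 CPM in WT and 37.6 to 59.3 in cKO over sets 1 and 3, and to 19.3 to 26.4 and 32.0 to 39.2 in set 2. Their part in the differences was not tested.

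Across the 12 comparisons of cKO with WT, Ddit3 was the member that differed most often. Its mean was higher in cKO in 12 of 12, without overlap in 8, and it was called in 5, all higher, with log2 differences from 0.05 to 2.34. Chac1 was called in 2 and higher without overlap in 6, Trib3 was called in 2, and Phgdh in 1. Atf4 itself was called in 1, lower, and Psat1 and Hspa5 in 1 each, lower. Asns, Sesn2 and Slc7a11 were called in none. Without overlap, Sesn2 was higher in 3, Trib3, Phgdh and Hspa5 in 2 each, and Atf4 and Asns in 1 each. Atf4 and Psat1 were lower without overlap in 3 each, Asns, Sesn2, Slc7a11 and Hspa5 in 2 each, and Trib3 in 1. Of all genes tested, 4.19% to 21.3% were higher and 4.47% to 24.5% lower without overlap in a comparison. Ddit3 was called on day 3, on day 8 with IFNγ and in sets 1, 2 and 3. The shares of all genes called there were 7.73%, 4.83%, 34.7%, 21.0% and 34.9%. Sets 1 and 3 are not independent, and the share for each other call is given with its comparison. H3f3b stood at 11.5% to 13.3% of WT in the antibody experiment, where Ddit3 was not called. It stood at 75.0% to 89.5% in the other comparisons, and the part of this difference was not tested.

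For the double knockouts the question was whether sensors and factors upstream of interferon are needed. The labels do not tie a double knockout to a set. Samples are listed in the order set 1, Sting KO, set 2, Mavs KO, set 3, Irf7 KO, which could reflect a pairing. Libraries of set 3 and Irf7 KO list 54146 genes, and those of the other groups 55536. Each double knockout was compared with the mean of the 3 cKO sets, so differences between sets enter these comparisons. Against the set listed just before it, no member was called in Mavs KO or Irf7 KO libraries. In Sting KO libraries Psat1 lost its call, and Ddit3, Trib3 and Sesn2 kept theirs. Tmem173 (Sting) stood at 5.01 to 6.10 CPM in the Sting KO libraries against 68.2 to 91.6 in the cKO sets, and Irf7 at 98.3 to 112 in the Irf7 KO libraries against 249 to 470.2. Mavs stood at 37.2 to 37.9 CPM in the libraries labelled Mavs KO, within the range of cKO set 3 (36.0 to 41.9). It lay below cKO sets 1 (42.9 to 51.6) and 2 (48.5 to 51.0), so its level did not separate these libraries from every set. The paper reports loss of Mavs exons by genomic PCR, qRT-PCR and RNA-seq tracks, which a count over the whole gene does not test. H3f3b stood at 71.9 to 147 CPM in the Irf7 KO libraries against 187 to 220.3 in the cKO sets.

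In Sting KO cells 4 of the 10 genes were called, against 36.1% of all genes. Ddit3 rose to 35.8, 41.2 and 43.5 CPM, above all 9 cKO libraries (19.6 to 24.5), by 1.86-fold (log2 0.90, SE 0.106, adjusted p = 2e-06). The p-values take these 9 libraries as separate, although sets 1 and 3 are not independent. Sesn2 rose to 53.2, 57.0 and 57.9 CPM, again above all cKO libraries (27 to 42.5), by 1.59-fold (log2 0.67, SE 0.079, adjusted p = 2e-06). Trib3 stood at 15.1, 18.9 and 20.4 CPM (log2 1.04, SE 0.16, adjusted p = 3.1e-05), which was above cKO sets 1 and 3 (4.83 to 8.13) but met set 2 (13.4 to 15.6), and against set 2 alone the difference was 0.35 (adjusted p = 0.189). Psat1 fell to 43.5, 44.4 and 43.1 CPM (log2 -0.70, SE 0.226, adjusted p = 0.0173), and against set 1 or 3 alone the call was lost (adjusted p = 0.104 and 0.0951). Of 11 other stress factors and targets 7 rose and none fell (4 to 7 when 1 library was left out), led by Gdf15 (log2 1.18) and Nupr1 (log2 1.09). Stromal markers moved with these genes, at 181 to 226 CPM summed in Sting KO libraries against 26.6 to 80.0 in the cKO sets, 4 of 5 of them called higher, and their part was not tested.

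In the libraries labelled Mavs KO 3 of the 10 were called, against 8.79% of all genes. These were Trib3 (17.1, 13.3 and 12.0 CPM, log2 0.68, adjusted p = 0.00844), Asns (85.7, 68.8 and 65.3 CPM, log2 0.76, adjusted p = 0.0227) and Sesn2 (45.2, 45.2 and 39.8 CPM, log2 0.30, adjusted p = 0.0179). All 3 overlapped the cKO sets. Against cKO set 2 alone the differences were -0.01, -0.06 and 0.08 (adjusted p = 1.0 each), and without Mavs KO replicate 1 none was called. Among their neighbours 4 of 16 amino acid genes and 4 of 13 tRNA-charging genes rose, and 6 of 8 neutrophil markers fell (5 to 6 when 1 library was left out). Stromal markers summed to 92.6 to 331 CPM against 26.6 to 80.0 in the cKO sets, 5 of 5 of them called higher (3 to 5), and their part was not tested. In Irf7 KO cells 1 of the 10 was called, against 9.85% of all genes. Hspa5 stood at 966, 961 and 917 CPM (log2 0.38, SE 0.089, adjusted p = 0.00762), above all cKO libraries (533 to 870.0), but the call was lost against set 1 (log2 0.31, adjusted p = 0.0923) or set 3 (log2 0.26, adjusted p = 0.379). Ddit3 in Irf7 KO cells stood at 33.2, 22.4 and 19.5 CPM and overlapped the cKO sets.

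**Figure D5:**
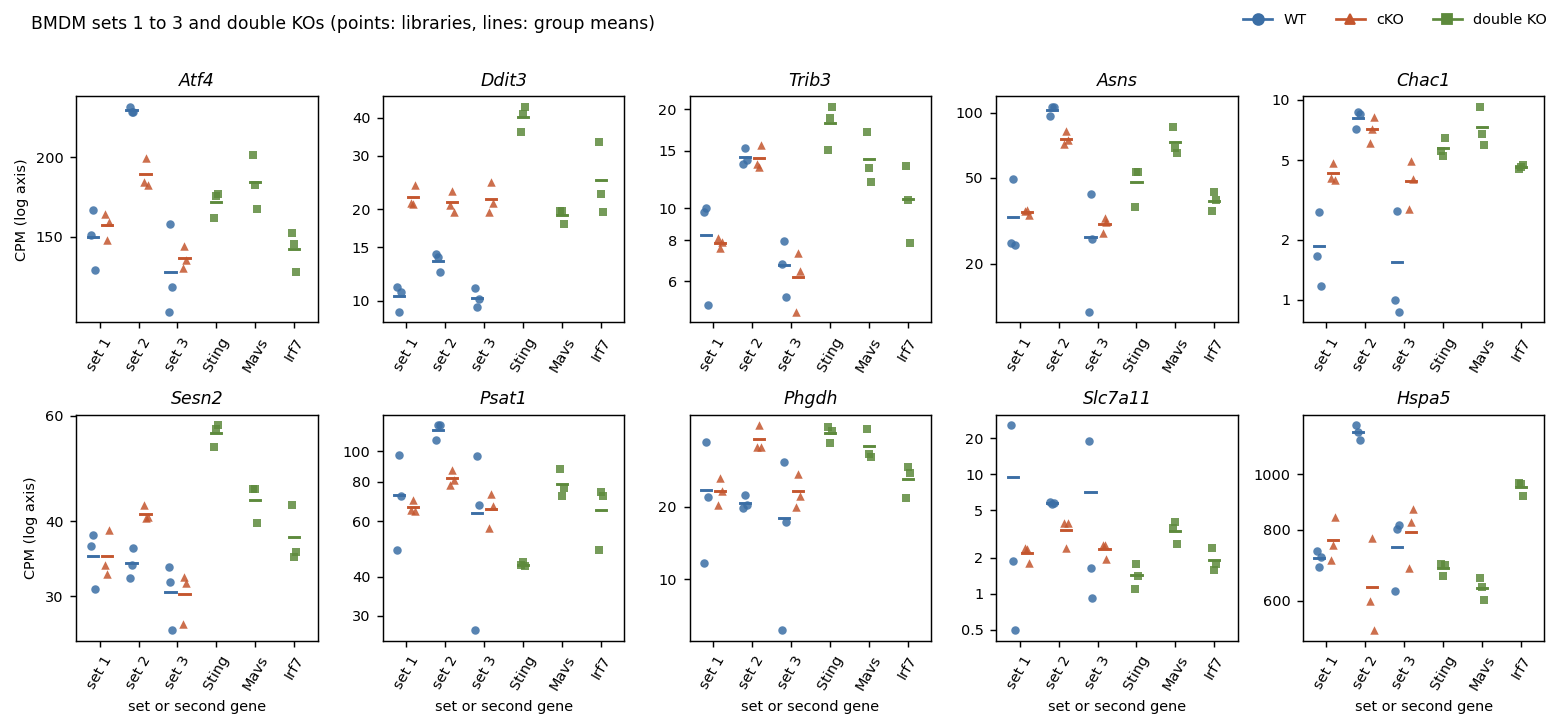
Levels (CPM, log axis) of the 10 genes in WT and cKO sets 1 to 3 and in the Sting, Mavs and Irf7 double knockouts (3 libraries each), with points for libraries and short lines for means. Ddit3 is higher in cKO than WT in each set and highest in Sting KO cells, and Hspa5 and Atf4 of cKO set 2 stand below WT set 2.

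Patterns over the 27 groups were compared by Pearson's r of log2 means centred within each experiment, as a description over points that share controls and depth. Among 11170 genes, those most like Ddit3 were H2-K1 (r = 0.912), H2-D1 (0.909) and Isg20 (0.907), which are major histocompatibility complex class I genes and an interferon-stimulated exonuclease. The genes most like Asns were Yars (0.905), Mthfd2 (0.873) and Gars (0.835), which are tRNA synthetases and a folate enzyme, and those most like Hspa5 were Pdia3 (0.897), Tmed7 (0.895) and Pdia6 (0.892), of which the first and last are ER disulfide isomerases. Between members, r was 0.853 for Ddit3 and Phgdh, 0.794 for Atf4 and Asns, 0.456 for Atf4 and Ddit3, and 0.0165 for Psat1 and Sesn2.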

How the data were processed

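Total RNA of BMDMs was rRNA-depleted and made into NEBNext Ultra II libraries per the labels, and that of peritoneal macrophages into SMART-Seq v4 libraries by the methods, and sequenced paired end. The authors trimmed reads with Cutadapt and aligned them to mm10 (the assembly GRCm38) with STAR. Deposited were raw counts per gene, without normalization, for 81 libraries. The unstranded column was used, since each strand held 49.9% to 50.8% of counts. A median of 38.1% of reads per library (18.1% to 78.1%) lay on no single gene and stayed out of library sizes. Tables were joined on gene identifiers without version (54079 genes). Groups came from the labels. For 2 cKO day 8 libraries the labels disagree on IFNγ, and these entered no comparison.

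Counts were tested with edgeR 4.0.16 (R 4.3.3, limma 3.58.1), TMM factors, filterByExpr (minimum count 10, total 15) and the quasi-likelihood test, with all groups of an experiment in 1 model, no block, and Benjamini-Hochberg adjustment over all genes tested. Per-kilobase levels used exon lengths of the GENCODE annotation. SE is the absolute log2 difference divided by the square root of F. The step was tested on simulated data. For day 3, of 49 genes raised 1.5-fold 2 were recovered, of 50 raised 2-fold 26 and of 49 raised 4-fold 47. There were 2 false calls among 15365 genes. The simulation gave all genes the same dispersion and had no outlying library, so these figures do not describe recovery in the real libraries. Lowest chi-square per degree of freedom between replicates of a group was 3.33, so no library was counted as a duplicate. P-values measure the spread between these libraries. Counts give precision from sampling alone, and a gene under 1 CPM rests on few reads in the shallowest library.

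The rule was to name all 10 members in each comparison and, of each other list, the 2 genes with the largest called rise and fall. Members that were not called are given in part by ranges and counts, and examples of the other lists by name. Members and lists were chosen with earlier results of these data known. Each count was recomputed with DESeq2 1.42.0, with RLE normalization, without a filter, with a mean of at least 1 CPM, on the strand column, with the replicate number as a block, with only the groups compared, with each cKO set as the reference of the double knockouts, and without each library in turn. Same-numbered libraries were taken as pairs where their deviations from the group means correlated above 0.1 in every pair over genes with a mean log2 CPM above 3. This held in 11 of 25 comparisons: cKO with WT on days 3, 5 and 7, with control antibody, in peritoneal macrophages and in sets 1 and 3, cKO day 5 with 3 and 7 with 5, IFNγ in WT, and control with no antibody in WT.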

Additional observations from a re-analysis of the deposited data

Results flagged for a closer look

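A pair of cKO day 8 libraries entered no comparison, because their titles and library names disagree on whether IFNγ was given. Their levels are plain CPM, without TMM scaling, and genes are listed where the level was above that of all WT untreated libraries of day 8, taken as controls. No test was made. Both libraries are cKO, so genotype and IFNγ cannot be told apart in their differences from the WT untreated libraries. Counts were also set beside those of the cKO libraries. Hspa5 had 22275 of 10498769 counts in the library titled without IFNγ and 9843 of 9674853 in the one titled with it. The cKO untreated libraries had 9421 to 10507 of 8586431 to 9879339, and the deeper cKO IFNγ library 21445 of 9543916. In the same order Ddit3 had 309, 135, 142 to 150 and 335, and Atf4 1876, 1284, 1109 to 1224 and 1804. Sesn2 had 216, 277, 244 to 249 and 233. In the library titled without IFNγ, Ddit3 stood at 29.4 CPM (7.55 to 10.7 in the WT untreated libraries), Trib3 at 6.29 (4.39 to 5.07), Chac1 at 3.33 (1.27 to 2.83), Asns at 61.1 (33.4 to 41.1), Phgdh at 27.4 (15.1 to 25.0) and Psat1 at 77.1 (55.1 to 74.0). Its Hspa5 stood at 2122 CPM (1110.3 to 1254) and its Atf4 at 179 (130.3 to 139). In the library titled with IFNγ, Ddit3 stood at 14 CPM, Trib3 at 5.48, Chac1 at 3.10 and Phgdh at 25.4, each above the same ranges, and the other 6 genes were not above them. Single libraries far from the others of their group were not tested for, since no group had more than 3 libraries.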

How the results depend on the processing

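The 28 comparisons made 41 calls of the 10 genes. DESeq2, no filter on low counts and a mean of at least 1 CPM lost none of the 41, RLE normalization lost 1, the strand column 3, the replicate block 4 (29 held) and only the groups compared 11. Over the 10 alternatives other than leaving out a library, 276 refits of a call kept direction and threshold, 25 lost the threshold and 2 reversed. With cKO set 2 as the reference of the libraries labelled Mavs KO, Trib3 stood at -0.007 and Asns at -0.055. The number of members called moved by more than 1.5 times in these cases. On day 3 it was 5 with no filter, 5 with the block and 6 with only the groups compared, against 3. On day 5 it was 2 with no filter, 1 by DESeq2 and 1 with the block, against 0. For the difference of days 7 and 3 it was 2 with no filter, 2 by DESeq2, 1 with the block and 1 with only the groups compared, against 0. For cKO with WT under IFNγ it was 0 with the block and 0 with only the groups compared, against 3, and for IFNγ in cKO 2 with only the groups compared, against 7. For cKO with WT it was 2, 2 and 1 without antibody (no filter, DESeq2, only the groups compared) and 4 with control antibody (only the groups compared), against 0. For IFNAR1 with control antibody in WT it was 2 with no filter, 2 with a mean of at least 1 CPM, 0 with the strand column, 4 by DESeq2, 3 with the block and 0 with only the groups compared, against 1. In cKO it was 1 with RLE, 1 with the strand column, 4 by DESeq2, 1 with the block and 0 with only the groups compared, against 2. For control with no antibody in cKO it was 1 with no filter, 2 by DESeq2 and 4 with only the groups compared, against 0. In set 2 it was 7 with no filter, 5 with the strand column and 8 with only the groups compared, against 3, and in set 3 it was 4 with no filter, against 2. For Mavs KO it was 5 with no filter, 6 with only the groups compared, 0 with set 2 and 6 with set 3 as the reference, against 3, and for Irf7 KO 0, 3 and 0 with sets 1, 2 and 3, against 1. The cause was not tested.

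Leaving out 1 library kept 223 refits of a call and lost 54. Members called then ranged from 2 to 3 on day 3, 0 to 1 on day 5, 0 to 1 from day 3 to day 5 in WT and 0 to 3 in cKO. They ranged from 0 to 5 for cKO with WT under IFNγ, 5 to 5 for IFNγ in WT, 4 to 6 in cKO and 0 to 3 for their difference. They ranged from 0 to 3 for cKO with WT without antibody, 0 to 1 with IFNAR1 antibody, 0 to 4 for IFNAR1 with control antibody in WT, 0 to 1 in cKO, and 0 to 3 for control with no antibody in WT. They ranged from 2 to 3 in sets 1 and 2, 2 to 4 in set 3, 3 to 4 in Sting KO, 0 to 3 in Mavs KO and 1 to 1 in Irf7 KO, and were 0 to 0 in the rest. Where leaving out a library left 1 of a group, the lone library is assumed to vary like the others. Comparisons whose numbers do not pair the libraries share only a number, and no call lost there under the block is read as a smaller effect. No paired analysis was possible for the double knockouts because their reference is 9 cKO libraries of 3 sets. Trib3, Chac1 and Slc7a11 of peritoneal macrophages did not pass the filter on low counts and were not tested there.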
